A study of Mus musculus with 12 samples.

Results

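The genes described here are the core of de novo fatty acid synthesis in liver: Fasn, Acaca, Acacb, Acly, Scd1, Elovl6, Me1 and Thrsp, together with Srebf1 and Mlxipl, which encode the transcription factors SREBP-1 and ChREBP. They were chosen by name and not by a rule on their values, but with earlier results of these data known. Every probe whose RefSeq accession belonged to any of them was taken. All 10 genes were measured, by 16 of the 39429 probes of the array, and each of these probes was well above background on all 12 arrays. The measurements came from livers of male C57BL/6 mice, 30 weeks old, kept on laboratory chow with free access. Floxed mice (n = 6), the controls, were homozygous for a conditional Phgdh allele and carried no Cre. LKO mice (n = 6) were their littermates with the same homozygous conditional allele plus a Cre transgene driven by the albumin promoter, which acts in hepatocytes and leaves Phgdh intact in the other liver cells. All mice thus shared the Phgdh flox/flox background, and no Cre-only control was analysed here. Phgdh encodes phosphoglycerate dehydrogenase, the first enzyme of serine synthesis. A pair of questions was put to the data: whether the lipogenic genes differed between LKO and Floxed livers, and whether they varied together with Fasn from liver to liver.

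De novo lipogenesis turns carbohydrate carbon into fatty acids. Citrate exported from mitochondria is split by ATP citrate lyase (Acly) into acetyl-CoA, acetyl-CoA carboxylase makes malonyl-CoA from it (Acaca in the cytosol, Acacb at the mitochondrial surface), and fatty acid synthase (Fasn) builds palmitate with NADPH supplied in part by malic enzyme (Me1). Elovl6 lengthens palmitate to stearate, Scd1 introduces the double bond of oleate, and Thrsp (Spot 14) is a small nuclear and cytosolic protein that promotes lipogenesis. In liver, insulin acts through SREBP-1c and carbohydrate metabolites act through ChREBP to raise transcription of these genes, so their mRNA is known to move with feeding. The Srebf1 probe was matched to the gene and not to a transcript form, so that its values are not those of SREBP-1c alone.

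The arrays were single-color Agilent arrays, and values are log2 intensities after quantile normalization over the 12 arrays, in which 1 unit is a doubling of intensity. Between 21614 and 24252 probes were well above background on an array, and no spot was saturated. Any pair of arrays correlated with r of at least 0.9789 over genes with a value on every array, each read by its brightest kept probe. The 12 arrays lay on 3 slides: Floxed mice 1 to 4 on slide 1, Floxed mice 5 and 6 with LKO mice 1 and 2 on slide 2, and LKO mice 3 to 6 on slide 3. Genotype and slide are therefore largely entangled, and slide 2 alone holds both genotypes. The deleted gene was checked first. The brighter Phgdh probe had a lowest, median and highest value of 4.81, 5.17 and 5.50 in Floxed livers and of 4.23, 4.57 and 5.30 in LKO livers. The ranges overlapped, and the mean difference was -0.48 on the log2 scale (two-sided exact permutation p = 0.0346, limma adjusted p = 0.451), against -0.06 within slide 2. The dimmer Phgdh probe was well above background on 4 of the 12 arrays and is not compared. Whether either probe lies in the deleted exons is not given in the sources used here, and directions are those between the libraries labelled LKO and Floxed. In whole liver, fewer cells of a type and less RNA per cell cannot be told apart.

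Because the 10 genes are known targets or regulators of the same transcription factors, the bases before their start sites are shown for 4 of them, chosen to set the genes that varied with Fasn beside Mlxipl, which did not. RefSeq promoter entries (build GRCm38.p6) were found for 9 of the 10 genes, with 13 start sites in all. Scd1 was not matched. The 250 bases before each start were searched on both strands for 5 motifs. The sterol response element, which SREBP binds, was searched as TCACNCCAC. The E-box, to which SREBP-1, USF and ChREBP complexes can bind, was searched as CACGTG, and also in the loose form CANNTG, which includes it. The box that the factor NF-Y binds was searched as CCAAT. The GC box, which Sp1 binds, was searched as GGGCGG. Each line gives the last 150 bases before the start, with matches to these motifs, the loose E-box left out, in capitals. The Fasn line is chr11:120824548-120824697 (minus strand), the Thrsp line chr7:97417551-97417700 (minus strand), the Acly line chr11:100528001-100528150 (minus strand) and the Mlxipl line, for the upstream of its start sites, chr5:135089740-135089889 (plus strand).
Fasn: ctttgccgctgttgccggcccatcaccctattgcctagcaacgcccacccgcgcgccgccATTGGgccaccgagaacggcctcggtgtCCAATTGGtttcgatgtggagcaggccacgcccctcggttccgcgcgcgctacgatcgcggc
Thrsp: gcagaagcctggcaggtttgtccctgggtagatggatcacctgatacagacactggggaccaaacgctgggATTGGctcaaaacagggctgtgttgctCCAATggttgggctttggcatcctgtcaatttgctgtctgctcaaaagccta
Acly: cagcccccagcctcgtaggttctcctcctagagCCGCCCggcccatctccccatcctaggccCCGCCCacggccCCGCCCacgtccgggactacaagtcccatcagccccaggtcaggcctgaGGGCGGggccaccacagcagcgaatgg
Mlxipl: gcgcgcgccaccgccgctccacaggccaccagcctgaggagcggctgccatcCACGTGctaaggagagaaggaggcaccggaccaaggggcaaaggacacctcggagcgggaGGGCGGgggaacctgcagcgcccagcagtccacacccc

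The Fasn line holds 3 CCAAT boxes, from 90 to 86, from 62 to 58 and, on the other strand and overlapping the one before it, from 59 to 55 bases before the start. Thrsp holds 2, from 79 to 75 and from 52 to 48 bases before the start. Over the 250 bases a CCAAT box was found in 6 of the 9 genes (Fasn, Thrsp, Acacb, Me1, Srebf1 and Mlxipl), and in 7 of their 13 promoters, where 33.8% of all 32851 promoters in the table hold one. The Acly line holds 4 GC boxes, and 4 of the 9 genes (Acly, Me1, Srebf1 and Mlxipl) hold at least 1, which is 5 of the 13 promoters, against 32.7% of all promoters. The E-box from 98 to 93 bases before the Mlxipl start was the only match of CACGTG in the 13 promoters, against 6.02% of all promoters. The loose E-box was in 9 of the 13 promoters, of 7 genes, against 66.2% of all promoters, from 61 to 56 bases before the start in Fasn and from 113 to 108 in Thrsp. The sterol response element was matched in 1 of the 13 promoters, before the downstream start of Mlxipl, against 1.05% of all promoters. These matches describe letters in short windows only. Sites farther from the start, or of other motifs, were not searched.

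Fasn mRNA differed widely between livers within each genotype. Fasn had a lowest, median and highest value of 9.49, 10.35 and 11.68 in Floxed livers and of 9.52, 10.61 and 12.31 in LKO livers, and the groups overlapped almost over their whole range. The highest liver, LKO mouse 5, lay 7.09-fold above the lowest, Floxed mouse 3, and even among the 6 Floxed livers the range was 4.56-fold. Genotype accounted for 2.80% of the variance of Fasn over the 12 livers.

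The spread of most of the other genes was of similar size, and the same livers stood at its ends. Over the 8 genes from Fasn to Thrsp, LKO mouse 5 had the highest value of all 12 livers in 8 of 8, and Floxed mouse 6 had the second highest in 7 of 8. LKO mouse 2 was lowest in 6 of 8 and Floxed mouse 3 in the other 2. On average over the 8 genes, LKO mouse 5 lay 1.46 above the gene means on the log2 scale, Floxed mouse 6 lay 0.99 above, Floxed mouse 3 lay at -0.91 and LKO mouse 2 at -1.14. Thus each genotype contributed a liver at the top and a liver at the bottom. Among all 16915 genes tested, the SD over the 12 livers of these 8 genes lay at or above the 94.9th percentile, whereas that of Srebf1 lay at the 77.1st and that of Mlxipl at the 60.0th.

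**Figure D1:**
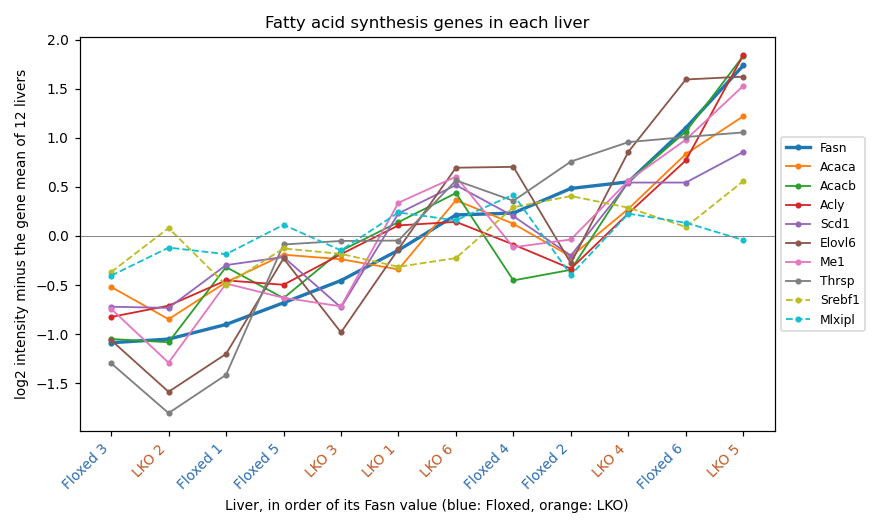
The log2 intensity of each gene minus its mean over 12 livers (vertical axis) is plotted for each liver in order of its Fasn value (horizontal axis, Floxed labels in blue and LKO labels in orange), with 1 line per gene and broken lines for the transcription factors. The 8 solid lines climb together from Floxed mouse 3 and LKO mouse 2 to Floxed mouse 6 and LKO mouse 5, while Srebf1 rises less and Mlxipl stays within a range of 0.83.

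Acly, which makes cytosolic acetyl-CoA, ran from 13.62 through a median of 14.05 to 15.22 in Floxed livers and from 13.74 through 14.57 to 16.29 in LKO livers. Its value in LKO mouse 5 stood apart from the other 5 LKO livers, the nearest of which was at 14.68. Acaca, the cytosolic carboxylase, ran from 11.67 through 11.98 to 13.02 in Floxed livers and from 11.34 through 12.20 to 13.41 in LKO livers. Acacb, the carboxylase whose product restrains fatty acid oxidation, ran from 10.91 through 11.57 to 13.03 in Floxed livers and from 10.88 through 12.25 to 13.80 in LKO livers. For both carboxylases the genotypes overlapped, and the top liver of each genotype was the one that was also top for Fasn.

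Me1, a source of NADPH, ran from 12.63 through 13.07 to 14.35 in Floxed livers and from 12.08 through 13.82 to 14.90 in LKO livers. Elovl6 had the widest range of the 10 genes, 9.26-fold, and ran from 11.13 through 12.08 to 13.93 in Floxed livers and from 10.74 through 12.61 to 13.96 in LKO livers. Scd1 ran from 15.35 through 15.87 to 16.62 in Floxed livers and from 15.34 through 16.45 to 16.93 in LKO livers. The Scd1 probe was near the upper end of the intensities on the array, its range was 3.01-fold, and it was not tested whether transcripts of the related genes Scd2, Scd3 and Scd4 bind to it. Thrsp ran from 14.04 through 15.59 to 16.47 in Floxed livers and from 13.65 through 15.72 to 16.51 in LKO livers. Its 3 lowest livers, LKO mouse 2, Floxed mouse 1 and Floxed mouse 3, lay well below the other 9.

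The transcription factor genes varied less. Srebf1 ran from 9.93 through 10.41 to 10.84 in Floxed livers and from 10.12 through 10.38 to 10.99 in LKO livers, a range of 2.08-fold over all 12. Mlxipl ran from 12.67 through 13.04 to 13.50 in Floxed livers and from 12.93 through 13.14 to 13.32 in LKO livers, a range of 1.77-fold. For Mlxipl both the highest and the lowest liver were Floxed.

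Variation in step with Fasn was tested for the other 9 genes by Pearson's r over the 12 livers, with a two-sided permutation test and Benjamini-Hochberg adjustment over all 16891 genes that could be set against Fasn. All 9 correlations were positive. At an unadjusted p below 0.05, 8 of 9 correlated positively with Fasn, against 6.21% of all genes, and after adjustment 5 of 9 did (Acaca, Acly, Elovl6, Me1 and Thrsp), against 0.101% of all genes. The median r was 0.897 for the 9 genes and -0.02 for all genes.

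Acaca followed Fasn most closely, with r = 0.926 (p = 1e-05, the smallest that the permutations can give, adjusted p = 0.0241), and 5 of all genes had a higher r. Me1 had r = 0.925 (p = 3e-05, adjusted p = 0.0338). Elovl6 had r = 0.916 (p = 5e-05, adjusted p = 0.0422), and Acly had r = 0.91 (p = 2e-05, adjusted p = 0.0241). These 4 were thus among the 12 genes of the array with the highest r. Thrsp had r = 0.892 (p = 4e-05, adjusted p = 0.0397) and the closest rank order of the 9, with Spearman's rho of 0.972 (p = 1e-05). Acacb at r = 0.897 (p = 0.00013, adjusted p = 0.0578) and Scd1 at r = 0.862 (p = 0.00046, adjusted p = 0.0853) missed the adjusted threshold. The lower r of Scd1 depended on the scaling. With arrays brought to a common 75th percentile and not quantile-normalized, r was 0.925 for Scd1 (permutation p = 5e-05), 0.935 for Acaca and 0.90 for Acacb. Spearman's rho for Acaca, Me1, Elovl6, Acly, Acacb and Scd1 lay between 0.804 and 0.902, with unadjusted permutation p between 0.00019 and 0.00272. None of the 9 rank correlations passed after adjustment, the lowest adjusted p being 0.0845 for Thrsp.

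**Figure D2:**
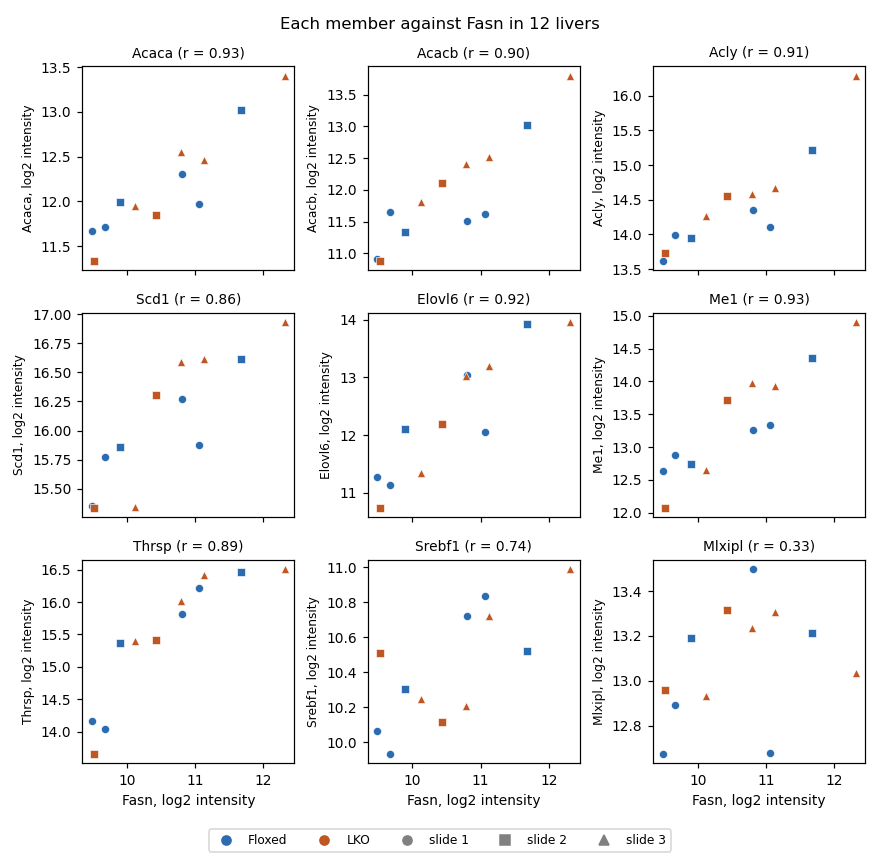
Each panel plots the log2 intensity of a gene (vertical axis) against that of Fasn (horizontal axis) in the 12 livers, with color for genotype and the shape of the points for slide. The points of Acaca, Acacb, Acly, Elovl6, Me1 and Thrsp lie along a rising line that both genotypes and all 3 slides share, those of Scd1 scatter more, and those of Mlxipl (r = 0.33) show little slope.

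Srebf1 was looser, with r = 0.739 (p = 0.00626, adjusted p = 0.201) and rho = 0.755 (p = 0.00619), and 1.69% of all genes had a higher r. Mlxipl did not pass either test, with r = 0.329 (p = 0.295, adjusted p = 0.690) and rho = 0.448 (p = 0.146), and 20.4% of all genes had a higher r. Both values lay below the range of 0.862 to 0.926 of the other 7 genes, and the difference between correlations was not tested.

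**Figure D3:**
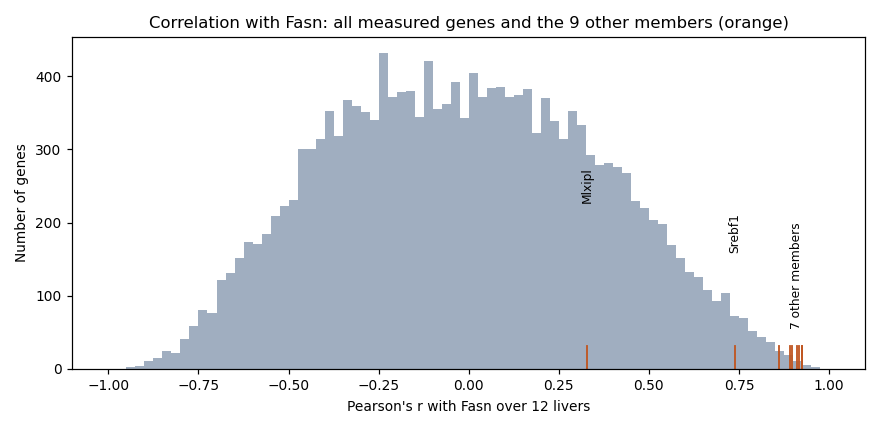
The histogram counts all 16891 genes (vertical axis) by Pearson's r with Fasn over 12 livers (horizontal axis), and short orange lines mark the 9 other genes of the group. The histogram is centered near 0, 7 of the orange lines lie at 0.862 or above, Srebf1 is at 0.739, and Mlxipl lies within the bulk of genes at 0.329.

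The relations held within genotypes and slides for the enzymes. Within the 6 Floxed livers, r of the 6 enzymes and Thrsp other than Fasn ran from 0.801 for Acacb to 0.930 for Thrsp, with two-sided exact permutation p between 0.00556 and 0.0222. Within the 6 LKO livers, r of these 7 genes ran from 0.857 for Thrsp to 0.989 for Acacb, with exact permutation p between 0.00139 and 0.0347. With every value centered on its slide, r of the 7 genes ran from 0.839 for Scd1 to 0.911 for Acaca. Within single slides of 4 arrays, given as a description, r of these 7 genes was positive on every slide and ran from 0.572 for Acacb on slide 1 to 0.993 for Acacb on slide 3. The 2 livers farthest from the median Fasn value were LKO mouse 5 and Floxed mouse 3. Without them r ran from 0.782 for Scd1 to 0.911 for Thrsp, so that the relation of the 7 genes with Fasn did not rest on those livers.

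Srebf1 depended more on single livers. Without LKO mouse 5 and Floxed mouse 3 its r was 0.558 and no longer passed (permutation p = 0.0964), so at that threshold the relation rests on those livers. Leaving out either alone kept the call, with r of 0.621 without LKO mouse 5 (permutation p = 0.0449) and 0.70 without Floxed mouse 3 (permutation p = 0.0171), and r with values centered on slides was 0.729 (permutation p = 0.0227). Within Floxed livers its r was 0.805 (exact permutation p = 0.0722) and within LKO livers 0.673 (exact permutation p = 0.146). On slide 1 its r was 0.977, on slide 3 it was 0.90 and on slide 2 it was 0.176. Mlxipl stayed below the threshold in each of these subsets, with r between 0.236 and 0.372 within genotypes and without those livers.

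The amount by which the genes moved for each unit of Fasn also differed. On the log2 scale, the slope against Fasn was 1.13 for Elovl6 and 1.01 for Thrsp, so these genes moved about as much as Fasn itself. It was 0.87 for Acacb, 0.86 for Me1, 0.75 for Acly, 0.62 for Acaca and 0.54 for Scd1. It was 0.28 for Srebf1 and 0.10 for Mlxipl. The order of the 9 slopes did not change when arrays were brought to a common 75th percentile and not quantile-normalized, where Scd1 had 0.58 and Acly 0.79. These slopes are a description and were not tested against each other.

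Measured against each other rather than against Fasn, the 8 genes from Fasn to Thrsp formed a single block. Their 28 pairs had a median r of 0.903, with the lowest pair at 0.719 and the highest at 0.967. Srebf1 correlated with the other genes but Mlxipl at 0.450 to 0.739, and Mlxipl with the others but Srebf1 at 0.329 to 0.615. Srebf1 and Mlxipl had r of 0.157 with each other. These values share the same 12 livers and are given without a test. The further probes of 4 genes were also set against Fasn, where r was 0.878 and 0.901 for the other probes of Acaca, 0.928 for that of Acacb, 0.782 for that of Acly, and 0.930 and 0.922 for those of Me1.

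**Figure D4:**
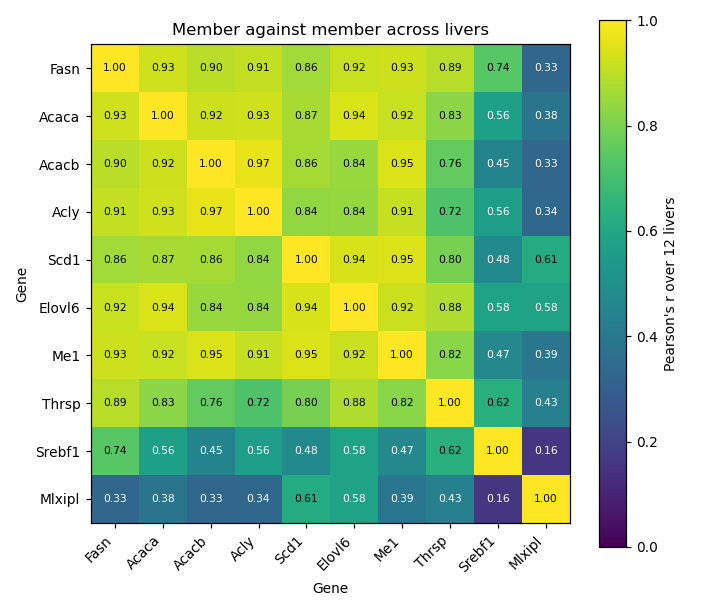
Each cell gives Pearson's r of a pair of genes over 12 livers, on a color scale from 0 to 1. The 8 genes from Fasn to Thrsp form a block in which every r is at least 0.72, Srebf1 is looser, and the row of Mlxipl holds the lowest values.

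The genotypes did not differ detectably in any of the 10 genes. Each was compared between LKO and Floxed livers with limma, fitted to all 16915 genes, and 0 of 10 passed at an unadjusted p below 0.05, where 8.35% of all genes did. After adjustment 0 of 10 passed, as did 0% of all genes, the lowest adjusted p of any gene being 0.132. All 10 means were higher in LKO livers, with a median log2 difference of 0.23 against -0.003 for all genes. Genes that move as a block share their direction, so the 10 directions are not separate pieces of evidence. The intervals were wide, since the standard errors of the 10 genes ran from 0.15 for Mlxipl to 0.58 for Elovl6, against a median of 0.12 for all genes.

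Acacb had the largest difference, 0.58 on the log2 scale (95% interval -0.35 to 1.51, adjusted p = 0.860), followed by Acly at 0.48 (-0.32 to 1.27, adjusted p = 0.865). Me1 differed by 0.34 (-0.59 to 1.27), Fasn by 0.28 (-0.73 to 1.30), Scd1 by 0.23 (-0.41 to 0.87) and Thrsp by 0.22 (-0.92 to 1.37). For Fasn this leaves room for a fold of LKO over Floxed anywhere between 0.604 and 2.46. Elovl6 differed by 0.16 (-1.10 to 1.41), Acaca by 0.14 (-0.54 to 0.83), Mlxipl by 0.11 (-0.21 to 0.42) and Srebf1 by 0.07 (-0.33 to 0.47). The transcription factors had the narrowest intervals of the 10. The unadjusted limma p lay between 0.204 and 0.791 and the adjusted p between 0.860 and 0.981 for the 10 genes, and the two-sided exact permutation p of their probes between 0.264 and 0.887. A dimmer probe of Acaca gave a difference of the other sign, -0.09.

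The direction depended on how slide was treated. On slide 2, where Floxed mice 5 and 6 and LKO mice 1 and 2 were measured side by side, all 10 genes were lower in LKO livers, by differences from -0.06 for Mlxipl to -1.54 for Elovl6. Slide 2 held both the second highest and the lowest liver on average over the 8 genes from Fasn to Thrsp. These were Floxed mouse 6 at 0.99 and LKO mouse 2 at -1.14. The other livers of slide 2 stood in the opposite order, LKO mouse 1 at 0.02 and Floxed mouse 5 at -0.40. With slide as a fixed block in the fit, the estimate is this same slide 2 difference. With slide as a random block, which also uses the differences between slides, all 10 stayed higher in LKO livers, from 0.08 for Srebf1 to 0.69 for Acacb. None of the 10 passed in either fit. The random-block estimates lay farther from the slide 2 differences than those of the fit without slide, for Fasn 0.38 against 0.28. The random block thus gave slide 2 less weight, and its direction is not one corrected for slide. Between slides lay 5.90% to 37.2% of the variance of a gene, and between genotypes 0.57% to 12.3%. A split of 12 values into 3 slides takes up more variance by number of groups alone than a split into 2 genotypes. The share between slides was the larger for each of the 10 genes, but for that reason the shares do not rank slide against genotype. Single livers also set the sign. Without LKO mouse 5 the difference was -0.04 for Fasn, -0.09 for Acaca, -0.15 for Elovl6 and -0.04 for Srebf1. Without LKO mouse 2 the difference of Acacb was 0.85 and passed at an unadjusted p of 0.0494 (limma). Outside slide 2, slide and genotype cannot be told apart.

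**Figure D5:**
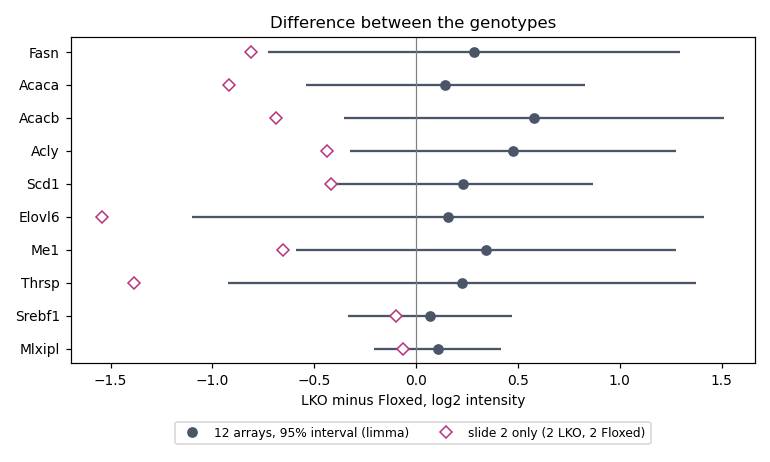
For each gene the filled point gives the mean difference LKO minus Floxed in log2 intensity over 12 arrays (horizontal axis), with its 95% interval from limma as a line, and the open diamond gives the difference within slide 2 (2 LKO and 2 Floxed livers). Every interval includes 0, all 10 filled points lie to the right of 0, and all 10 diamonds lie to the left.

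Genes of neighboring steps were read the same way from lists of known pathway genes. In the supply of acetyl-CoA and NADPH, 8 of 18 measured genes correlated positively with Fasn at an unadjusted p below 0.05 and 1 negatively, where 6.21% and 6.42% of all genes did, and the median r was 0.536. Pgd, which makes NADPH in the pentose phosphate pathway, had r = 0.901 (adjusted p = 0.0545). Tkt and Taldo1, which rearrange pentose phosphates, had r of 0.859 (adjusted p = 0.0708) and 0.841 (adjusted p = 0.0965). The gene with a negative r, H6pd, named here after its value was seen, supplies NADPH inside the endoplasmic reticulum and had r = -0.716. In elongation and desaturation beyond Elovl6 and Scd1, 8 of 18 genes passed positively and 0 negatively, with a median r of 0.446. Cyb5r3, which passes electrons to desaturases through cytochrome b5, had r = 0.819, the desaturase Scd3 had r = 0.792 and Elovl5, which lengthens polyunsaturated fatty acids, had r = 0.788. None of the genes in these lists passed after adjustment.

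In triglyceride synthesis 6 of 19 genes passed positively and 0 negatively, with a median r of 0.288. Gpam, which adds the first acyl chain to glycerol 3-phosphate, had r = 0.894 and passed after adjustment (adjusted p = 0.0493). Acsl5, which activates fatty acids, had r = 0.870 (adjusted p = 0.0665), and the monoacylglycerol acyltransferase Mogat1 had r = 0.842 (adjusted p = 0.0984). Pnpla3, a lipid droplet gene that SREBP-1c is known to induce, was well above background on only some arrays, at most 4 of 12 for a probe. The probe with 4 detected it in Floxed mouse 6 and LKO mice 4, 5 and 6, which were the livers with the 4 highest averages of the 8 genes, and the other probe detected it in Floxed mice 4 and 6 and LKO mouse 5.

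Among known ChREBP partners and targets, 7 of 16 genes passed positively and 0 negatively, with a median r of 0.431, although the mRNA of Mlxipl itself did not pass. Pklr, the liver pyruvate kinase, had r = 0.874 (adjusted p = 0.0637), the fructose-metabolizing kinase Khk had r = 0.796 and Tkfc, a kinase of the same pathway, had r = 0.791. Of 29 measured genes that process SREBP or control SREBP-1c, 1 passed positively and 1 negatively, a share near that of all genes, and the median r was -0.10. The positive gene was Mid1ip1, a relative of Thrsp that promotes acetyl-CoA carboxylase polymerization (r = 0.824), and the negative was Med15, a Mediator subunit that binds SREBP (r = -0.752). Mbtps1, the site 1 protease, had r = -0.568 (p = 0.0536). Between genotypes, 0 to 1 gene of each of these 5 lists passed at an unadjusted p below 0.05, where 8.35% of all genes did. These were Hacd4, 1 of 18 genes of its list, at -0.35 (limma adjusted p = 0.598), and Rnf145, 1 of 29. Rnf145, a ubiquitin ligase of the sterol pathway, was at -0.39 (limma adjusted p = 0.437). Within slide 2 alone Hacd4 had the other sign, at 0.17, and Rnf145 was at -0.475.

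Among genes with a symbol, those outside the group with the highest r with Fasn were Ttc23 at 0.965, Slc2a4 at 0.948, the mitochondrial deacylase Sirt5 at 0.924, Samm50, of the mitochondrial outer membrane assembly machinery, at 0.915, and Trappc4, of a vesicle tethering complex, at 0.911. Their adjusted p lay between 0.0241 and 0.0397. Slc2a4, which encodes the insulin-responsive glucose transporter GLUT4, moved the most, with values from 3.67 in LKO mouse 2 to 8.81 in LKO mouse 5 and a slope of 1.64 against Fasn. The lowest r were those of Amigo1 at -0.946, Nfkbia, the inhibitor of NF-kappaB, at -0.945, the carboxylesterase gene Ces3a at -0.927, the complement gene C8a at -0.92 and the tetraspanin gene Tspan33 at -0.915. Nfkbia ran from 12.40 in Floxed mouse 1 down to 11.66 in LKO mouse 5. All 10 kept their sign within each genotype and with values centered on slides. They were picked by their r over these same livers, so this is a description and not a separate test.

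Cell type markers and genes that respond to meals were read beside these results. The summed level of the hepatocyte markers lay between 20.55 and 20.70 over all 12 livers, and 0 of 8 that could be set against Fasn passed. That sum is carried by some of the brightest probes, whose levels quantile normalization makes alike on every array. It therefore cannot show whether hepatocyte content differed. Serpina1a did not vary at all after normalization and could not be set against Fasn. Of 10 adipocyte markers, 6 were well above background on all arrays. Lep was above background on none, Plin1 on 1 and Adipoq on 3. The summed adipocyte level lay between 14.00 and 15.82 in Floxed and between 13.82 and 15.39 in LKO livers, and Pck1, which hepatocytes also express, carried most of it. Summed over the other 5 genes that were well above background on all arrays, the level lay between 10.76 and 12.31 in Floxed and between 10.39 and 13.28 in LKO livers, at 11.91 in Floxed mouse 6 and 12.63 in LKO mouse 5. Single genes of that list moved both ways with Fasn, Cidea at r = 0.611 and Fabp4 at r = 0.592 upward, Adrb3 at r = -0.795 and Pck1 at r = -0.699 downward, and none passed after adjustment. None of the macrophage, stellate cell, lymphocyte or acinar markers passed. Of 6 endothelial genes, 1 passed (Lyve1, r = 0.591), and 3 of the 6 had r above 0. Of 3 blood genes, 1 passed (Alas2, r = -0.873), and the other 2 had r above 0. Neither Lyve1 nor Alas2 passed after adjustment. Of all genes set against Fasn, 6.21% passed positively and 6.42% negatively at an unadjusted p below 0.05. Among genes known to respond to feeding or fasting, the fasting genes Pck1 and Angptl4 had r of -0.699 and -0.694 and passed at an unadjusted p below 0.05, and neither passed after adjustment. None of 8 measured clock genes passed. Between genotypes, Pecam1 of the endothelial list (0.70), Cel of the acinar list (0.54) and Egr1 (1.53) were higher in LKO livers and the clock gene Per1 lower (-1.15) at an unadjusted limma p below 0.05, with adjusted p between 0.257 and 0.44. These were 1 of 6 endothelial, 1 of 4 acinar, 1 of 12 feeding and 1 of 8 clock genes tested, against 8.35% of all genes. Within slide 2 alone the difference was 0.04 for Pecam1, 0.27 for Cel, 1.06 for Egr1 and -1.51 for Per1. No gene of the other marker lists passed between genotypes. The time of day and the last meal before dissection are not given in the sources used here, and the part of feeding state or of other cells in the shared variation was not tested.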

How the data were processed

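What the authors deposited per array was spot-level intensity from Agilent Feature Extraction (version 10.7.1.1 per the file headers, 9.5.1.1 per the labels), including a processed intensity from which background had been removed, with flags and no scaling between arrays. They also deposited a quantile-normalized intensity table, used as an alternative. The labels and the paper's methods name different RNA kits, so the kit is uncertain. Control spots were left out, processed intensities were put on the log2 scale and quantile-normalized, outlier spots (0.298%) were set to missing and spots of a probe averaged. The 20404 probes marked as well above background on every array entered the tests, and the brightest probe stood for a gene. Symbols came from RefSeq accessions (94.3% of 28389 probes matched). The array was designed on another build, so probes have no coordinates here.

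Genotypes were compared with limma 3.58.1 in R 4.3.3 without covariates, over 16915 genes, with calls at an unadjusted p below 0.05 as in the authors' array methods. Single probes were compared by the exact permutation test over 924 arrangements. Correlations with Fasn used 100000 permutations of 12 livers, all 720 orders within a genotype and all 13824 within slides (Python 3.11.15, scipy 1.17.1). The code was tested on simulated data. Replicates are separate mice. Their number limits the precision.

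Members and gene lists were chosen with earlier results of these data known, and the lists come from general knowledge. Genes named are the members, Phgdh, the 5 other genes with a symbol that had the highest and the 5 that had the lowest r with Fasn, and of each list those called between genotypes and up to 3 pathway genes with the largest r in either direction. Other markers are named where they passed. Same-numbered Floxed and LKO mice were not treated as pairs, because the correlations of their deviations ran from -0.24 to 0.32. The methods call the groups littermates, and same-numbered mice have adjacent animal numbers in the labels, which may point to shared litters, but no label says so. Alternatives covered normalization, background correction, signal column, filters, probe choice, threshold, test, slide, replicate number and each array left out. A result for 1 gene of the lists is not reported here.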

Additional observations from a re-analysis of the deposited data

Results flagged for a closer look

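In 2 of the 20 sets of 6 values (10 genes in each genotype), 1 liver stood apart from the other 5 by more than Dixon's limit, where chance gives about 1 in 20. Acacb was at 13.03 in Floxed mouse 6, and the other Floxed livers lay between 10.91 and 11.65. Acly was at 16.29 in LKO mouse 5, and the other LKO livers lay between 13.74 and 14.68. Both livers also had the highest Fasn value of their genotype.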

How the results depend on the processing

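No member was called between genotypes under any alternative but 1: without a single mouse the number called ran from 0 to 1 (Acacb without LKO mouse 2, 0.85, at an unadjusted limma p of 0.0494). Over all genes the number called was 1413, 2791 without the filter on dim probes, 317 with slide as a fixed block, 1925 with slide as a random block (under which the members kept their sign), 88 with an absolute log2 change of at least 1 added, 0 after adjustment, and 1103 to 1837 with a mouse left out. With slide as a fixed block all 10 members changed sign: Fasn -0.81, Acaca -0.92, Acacb -0.69, Acly -0.44, Scd1 -0.42, Elovl6 -1.54, Me1 -0.65, Thrsp -1.39, Srebf1 -0.10 and Mlxipl -0.064. That estimate rests on the 4 arrays of slide 2 by construction. Among them were Floxed mouse 6 and LKO mouse 2, the second highest and the lowest liver on average over the 8 genes from Fasn to Thrsp. The random block gave the comparison within slide 2 less weight than the fit without slide did. Its 1925 calls and the signs under it are therefore not corrected for slide. With a mouse left out, the log2 difference ran from -0.035 to 0.53 for Fasn, -0.085 to 0.33 for Acaca, -0.15 to 0.49 for Elovl6, -0.036 to 0.61 for Thrsp and -0.036 to 0.16 for Srebf1. In an alternative chosen after seeing the data, without Floxed mouse 6 and LKO mouse 5, Srebf1 was at -0.011 and the other 9 kept their sign. A dimmer Acaca probe gave -0.091, and the cause was not tested. The number of members correlated with Fasn was 8 in most alternatives, 7 without the 2 livers farthest from the median or within a genotype, and 6 with values centered on the replicate number (replicate block), where Mlxipl was at r = -0.20. The calls lost there were Scd1 and Srebf1, although their r was higher than before, at 0.917 and 0.984 (exact permutation p = 0.0625 for both). With the replicate block, 1428 of all genes and 0 members were called, and no call of a member changed. The Fasn probe could not be exchanged, since Fasn had a single probe. Signal near background limited Pnpla3 and the adipocyte markers, not the members.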
